A study of Sus scrofa with 15 samples.

Results

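The 10 genes described here encode adipokines, the hormones and signalling proteins that fat cells release, and receptors for them. They are adiponectin (ADIPOQ) with its receptors ADIPOR1 and ADIPOR2 and its binding cadherin CDH13, leptin (LEP) with its receptor LEPR, retinol binding protein 4 (RBP4), chemerin (RARRES2), NAMPT, also called visfatin, and apelin (APLN). They were chosen by name from this family, with earlier results of these data known. They were matched by gene symbol to the Ensembl identifiers of the count tables. All 10 were present among the 30477 genes counted and all 10 passed the filter on low counts, which left 14918 genes to be tested.

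RNA-seq was performed on backfat, the subcutaneous fat of the back, of 15 pigs of the Iberian breed. The pigs were put on 1 of 3 diets at 6.5 months of age and backfat was biopsied at 12 months, with 5 pigs per diet and 1 library per pig. The control diet (C) was a compound feed restricted to 70% of the energy that pigs take in when fed freely. The dry olive pulp diet (DOP) was a compound feed with 45% of olive pulp, given at 60%. The wet crude olive cake diet (WCOC) was a compound feed, also given at 60%, with a silage of 75% crude olive cake and 25% barley straw offered freely. Each diet was fed in a single pen, so diet, feeding level and pen cannot be told apart and p-values measure the spread between pigs of 1 pen. The libraries were made from biopsies chosen for the quantity and quality of their RNA.

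The libraries held between 22373715 and 34745218 read pairs counted on genes. All 5 DOP libraries and C replicate 5 carry the run identifier of flow cell B, and the other 9 libraries that of flow cell A. The 14 adipocyte markers found in the tables, led by the lipase LPL, summed to between 16200 and 24600 CPM (counts scaled to library size and TMM) with overlapping ranges in the 3 diets. A list of 8 skeletal muscle markers, of which TNNI2 was at 0 in all libraries, summed to 46.7 to 3510 CPM in C, 33.6 to 45400 CPM in DOP and 18.6 to 694 CPM in WCOC, and the 3 libraries with the highest sums were DOP replicates 2, 4 and 5. The 10 macrophage markers summed to 248 to 718 CPM in C, 173 to 437 CPM in DOP and 119 to 331 CPM in WCOC. The 10 preadipocyte and fibroblast markers summed to 19700 to 29100 CPM in C, 17500 to 27000 CPM in DOP and 13400 to 22200 CPM in WCOC, and the 8 endothelial markers to 1070 to 1350, 1360 to 1770 and 1170 to 1880 CPM. Lymphocyte markers summed to at most 38.2 CPM and epidermis markers to at most 134 CPM in any library. In bulk tissue, fewer cells of a type and less RNA per cell cannot be told apart, and this holds for every level below.

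Adiponectin is released by fat cells in large amounts, circulates as multimers and acts through ADIPOR1 and ADIPOR2 on AMP-activated kinase and PPAR-alpha, and CDH13 holds its larger forms on the surface of vessel cells. Leptin reports the size of the fat stores to the hypothalamus through LEPR, which signals by JAK2 and STAT3. RBP4 carries retinol in blood, chemerin draws CMKLR1-bearing immune cells and acts on fat cell differentiation, NAMPT is the rate-limiting enzyme of the NAD salvage pathway and is also found outside cells, and apelin acts on vessels and the heart.

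Levels were first compared between the genes per kilobase of exon, over all 15 libraries. ADIPOQ stood first with 5090 ± 1360 CPM per kilobase (SD, n = 15), and by CPM it was the 16th most abundant of the 14918 tested genes. Its RefSeq model is marked as partial and holds 985 bases, so its level per kilobase is an upper value. ADIPOR2 followed with 414 ± 75.2 CPM per kilobase, CDH13 with 121 ± 19.1 and LEP with 105 ± 40.6, and the last 2 overlapped in their spread. RARRES2 (34.1 ± 10.5) and ADIPOR1 (28.4 ± 3.76) did not differ beyond their spread, and neither did RBP4 (18.5 ± 5.38) and NAMPT (15.7 ± 3.08). APLN (4.10 ± 1.09) and LEPR (0.133 ± 0.130) were the lowest. The 2 receptors for adiponectin were thus unequal, with 16.2 ± 2.17 ADIPOR2 per ADIPOR1 transcript on the per-kilobase scale in C, 13.7 ± 1.78 in DOP and 13.8 ± 1.36 in WCOC (SD, n = 5), and these ranges overlapped.

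**Figure D1:**
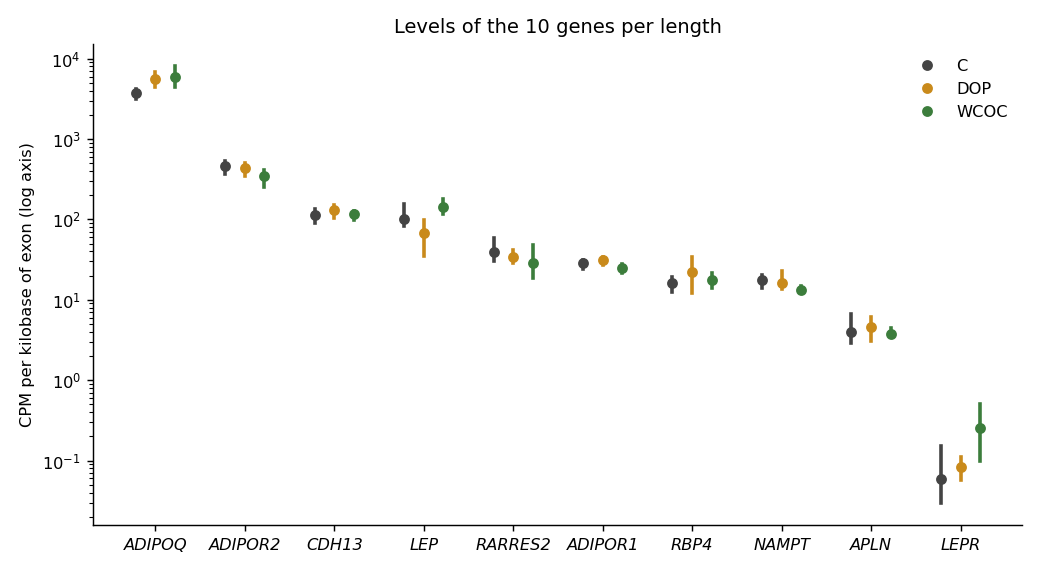
Level of the 10 genes per kilobase of exon (log axis) in each diet. Points are means and lines run from the lowest to the highest of the 5 libraries per diet. ADIPOQ lies highest and LEPR lowest in each of the 3 diets.

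The question behind the comparisons was whether feeding either olive by-product during growth changed gene expression in backfat. A gene was called when its Benjamini-Hochberg adjusted p was under 0.05 and its log2 fold change (log2FC) was at least 0.58 in size, the limits of the study. In DOP vs. C, 0 of the 10 genes were called by edgeR, beside 0.764% of all tested genes, and 3 of 10 had an unadjusted p under 0.05 (17.6% of all genes). DESeq2 and limma-voom also called 0. In WCOC vs. C, 2 of 10 were called, ADIPOQ and LEPR, both higher in WCOC, beside 6.25% of all tested genes called in either direction and 2.33% called higher. In WCOC vs. DOP, 2 of 10 were called, LEP and LEPR, both higher in WCOC, beside 7.76% in either direction and 2.65% higher. The median log2FC of the 10 genes was 0.18, -0.01 and -0.27 in the 3 comparisons, beside 0.01, 0 and 0 over all tested genes. In each comparison 1 of the 10 genes lay higher with no overlap between the diets, ADIPOQ in both comparisons with C and LEP in WCOC vs. DOP, beside 1.7%, 3.75% and 4.14% of all tested genes. The first 2 comparisons share the C libraries and the last shares its libraries with both. Since the 10 genes were chosen with earlier results known, these shares are a description and not an unbiased contrast.

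**Figure D2:**
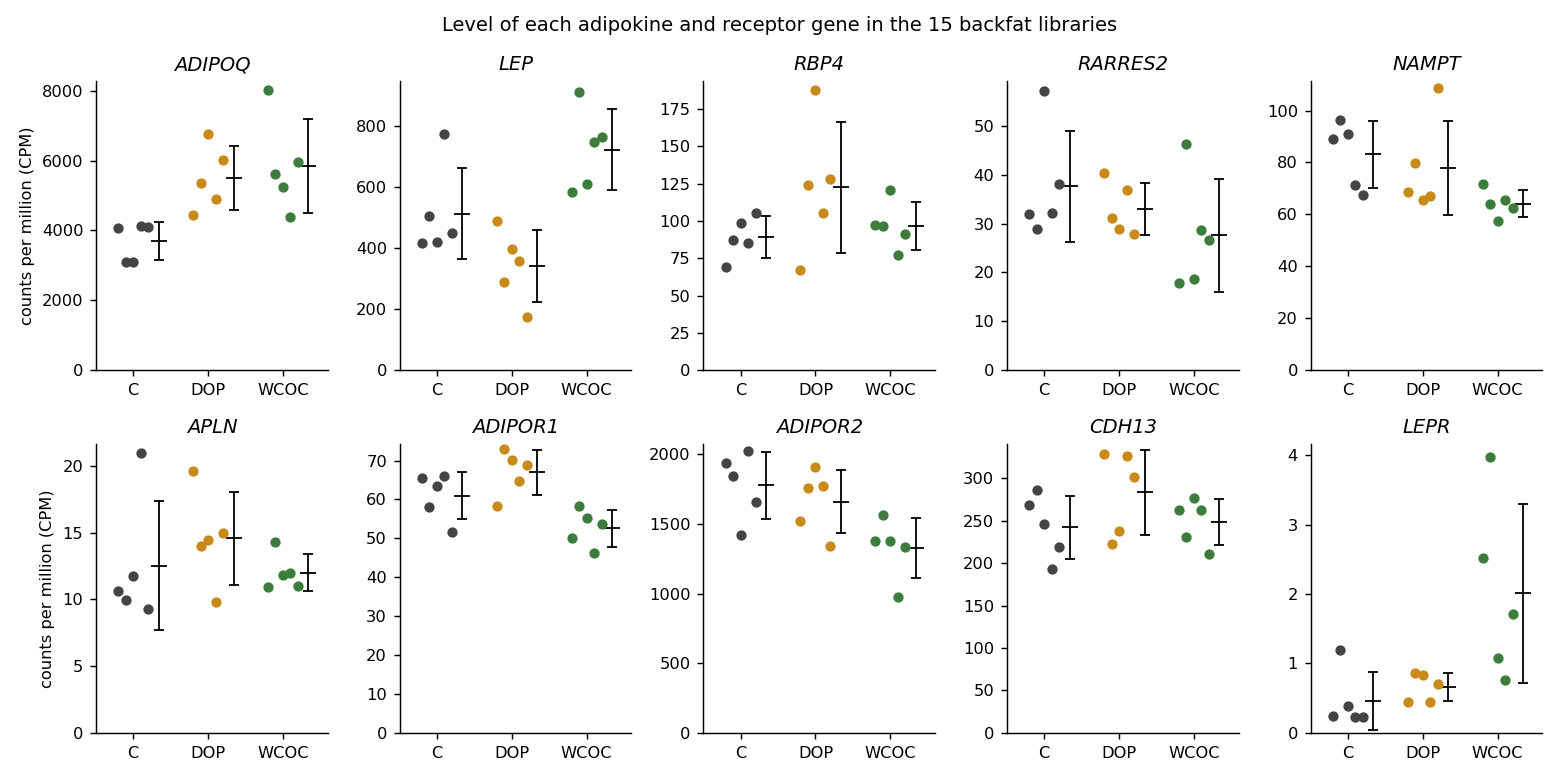
CPM of the 10 genes in every library, with adipokines first and receptors after them. Points are libraries in order of replicate number within each diet, and the bar beside them is the mean ± SD (n = 5). ADIPOQ points of C lie below all those of DOP and WCOC, and LEP points of DOP lie below all those of WCOC.

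ADIPOQ (ENSSSCG00000039103) lies on chromosome 13 from 124633906 to 124646237, plus strand (Sscrofa11.1). The 5 C libraries held 4058, 3094, 3087, 4128 and 4089 CPM. The 5 DOP libraries held 4432, 5367, 6756, 4890 and 6021 CPM. The 5 WCOC libraries held 8028, 5628, 5242, 4386 and 5960 CPM. Every pig on either by-product was thus above every control pig, and DOP and WCOC overlapped. The share of all gene counts taken by this 1 gene averaged 0.361% ± 0.0587 for C pigs, 0.508% ± 0.0735 for DOP pigs and 0.645% ± 0.157 for WCOC pigs (SD, n = 5).

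ADIPOQ rose in WCOC vs. C by a log2FC of 0.66 (SE 0.17, adjusted p = 0.0281), or 1.58-fold. In DOP vs. C its log2FC was 0.57 (SE 0.17, adjusted p = 0.126), with a 95% interval from 0.20 to 0.94, and it was not called. DESeq2 gave the same log2FC of 0.57 with an adjusted p of 0.0204, just short of the limit of 0.58, and over 17 alternatives the adjusted p ran from 0.0204 to 0.674. WCOC and DOP differed by a log2FC of 0.09 (95% interval -0.28 to 0.46, adjusted p = 0.782). The call in WCOC vs. C stood in 11 of 18 alternatives, with adjusted p from 0.00143 to 0.537. It was lost without C replicate 2 (adjusted p = 0.0582), C replicate 3 (0.0814), WCOC replicate 1 (0.0786) or WCOC replicate 5 (0.0524). With the mean of the macrophage list as a covariate the log2FC was 0.49 (adjusted p = 0.537), with that of the preadipocyte and fibroblast list 0.34 (0.481), with that of the adipocyte list 0.61 (0.0196) and with that of the endothelial list 0.81 (0.132). Whether these cell types had a part in the difference was not tested.

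LEP (ENSSSCG00000040464) lies on chromosome 18 from 20106867 to 20124071, minus strand. RefSeq lists 6 transcripts of it with 6 starts, and the curated one starts at 20113089. A short stretch upstream of the predicted start at 20123318 is shown because it holds the 2 motifs that textbook accounts place in the leptin promoter, a C/EBP site (TTGCGCAA) and a TATA box (TATAA), in capitals. It spans chr18:20123360-20123388 of Sscrofa11.1 and is read 5′ to 3′ on the minus strand.
LEP upstream site: TTGCGCAAgttgcgctcgcgcgtcTATAA
TTGCGCAA lies 70 to 63 bases and TATAA 46 to 42 bases before that start. In the 250 bases before the outermost start of 20651 genes, TTGCGCAA on either strand was found in 0.16% and TATAA in 18.6%. Of the 9 members looked at, ADIPOQ not among them, LEP alone held TTGCGCAA, and LEP and RBP4 held TATAA. For LEP the window lay before the start at 20123318, which is not its outermost, and for the other members before their outermost start. LEP is therefore not compared like for like with the other members or with these shares. The motifs were chosen after the sequence had been seen and describe the letters only, not the binding of a factor. Which start is used in these libraries was not examined.

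The 5 C libraries held 417, 505, 420, 773 and 448 CPM of LEP. The 5 DOP libraries held 486, 290, 395, 358 and 174 CPM. The 5 WCOC libraries held 582, 909, 609, 745 and 762 CPM. All WCOC values lay above all DOP values, and both overlapped with C, whose replicate 4 stood apart from its group.

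LEP was higher in WCOC than in DOP by a log2FC of 1.08 (SE 0.24, adjusted p = 0.0140), or 2.12-fold. Against C the differences had opposite signs and neither was called. The log2FC was -0.59 in DOP vs. C (95% interval -1.11 to -0.07, adjusted p = 0.227) and 0.49 in WCOC vs. C (95% interval -0.02 to 1.01, adjusted p = 0.210). The call in WCOC vs. DOP stood in 15 of 15 fits that left out 1 library and in 13 of 17 other alternatives, with adjusted p from 0.000219 to 0.439 over the latter. It was lost with flow cell as a covariate (log2FC 0.84, adjusted p = 0.439), which separates the 2 diets, and without the 3 libraries highest in muscle markers (log2FC 0.70, adjusted p = 0.275). The mean of the muscle list as a covariate also removed the call (log2FC 0.83, adjusted p = 0.0573). So did that of the preadipocyte and fibroblast list (log2FC 1.2, adjusted p = 0.0544).

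By mean level ADIPOQ was higher in both olive diets than in C, and LEP was lowest in DOP, though neither gene was called in DOP vs. C. The ratio of the pair differed between libraries. ADIPOQ counts per LEP count were 9.72, 6.12, 7.36, 5.34 and 9.13 in C. They were 9.11, 18.5, 17.1, 13.7 and 34.7 in DOP. They were 13.8, 6.19, 8.61, 5.88 and 7.82 in WCOC. The means were 7.53 ± 1.88, 18.6 ± 9.69 and 8.46 ± 3.19 (SD, n = 5). Of the DOP libraries, 4 lay above all C libraries, and the ranges overlapped through DOP replicate 1. The highest ratios were those of DOP replicates 5 and 2, which also held the highest sums of muscle markers (45370 and 9961 CPM). DOP replicate 4, also high in muscle markers, had a ratio of 13.7. Whether muscle in the biopsies had a part in the ratio was not tested. No test was run on the ratio.

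**Figure D3:**
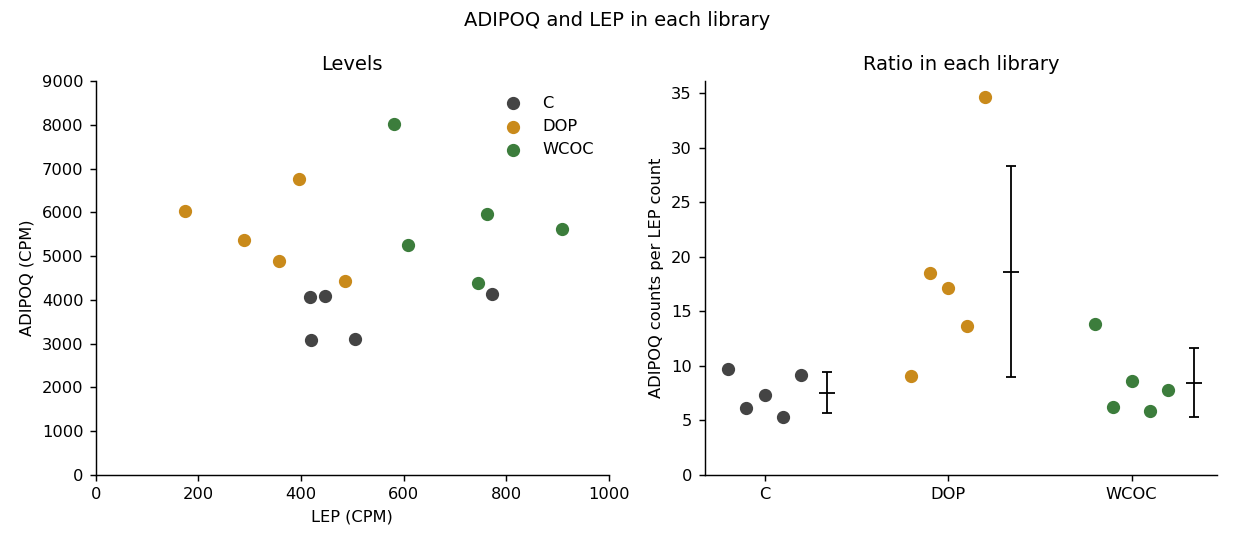
ADIPOQ against LEP in each library (left, CPM on both axes) and ADIPOQ counts per LEP count (right, points are libraries, bars are mean ± SD, n = 5). All DOP libraries lie at lower LEP than all WCOC libraries, both lie above C in ADIPOQ, and the ratio reaches 34.7 in DOP.

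The remaining ligands showed no called difference. RBP4 (chromosome 14 from 105037360 to 105044552, minus strand) held 69.0, 87.6, 98.7, 85.3 and 106 CPM in C. It held 67.0, 124, 188, 105 and 129 CPM in DOP and 97.1, 96.6, 121, 77.4 and 91.2 CPM in WCOC. DOP held both the lowest and the highest library of all 15. The log2FC was 0.46 in DOP vs. C (95% interval 0.01 to 0.90, adjusted p = 0.270), 0.12 in WCOC vs. C (adjusted p = 0.766) and -0.34 in WCOC vs. DOP (adjusted p = 0.309). The span of RBP4 overlaps PDE6C on the opposite strand, and the strand setting of the counting is not given in the sources used here.

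RARRES2, the chemerin gene (chromosome 18 from 55903693 to 55906976, minus strand), held 31.9, 28.8, 57.1, 32.1 and 38.1 CPM in C. It held 40.3, 31.1, 28.9, 36.8 and 27.8 CPM in DOP and 17.8, 46.4, 18.6, 28.8 and 26.6 CPM in WCOC. WCOC held the 2 lowest libraries but also the second highest of all. The log2FC in WCOC vs. C was -0.45 (95% interval -0.97 to 0.08, adjusted p = 0.265). Without WCOC replicate 2, the highest of its group, it was -0.72 (adjusted p = 0.0372) and the gene was then called. With the mean of the preadipocyte and fibroblast list as a covariate the sign turned (log2FC 0.21). In DOP vs. C the log2FC was -0.19 (adjusted p = 0.747).

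NAMPT (chromosome 9 from 106119896 to 106162126, minus strand) held 67.5 to 96.4 CPM in C, 65.4 to 109 CPM in DOP and 57.6 to 71.6 CPM in WCOC. Its log2FC in WCOC vs. C was -0.37 (95% interval -0.67 to -0.08, adjusted p = 0.105) and the values overlapped. APLN (chromosome X from 106236746 to 106246563, minus strand) held 9.28 to 21 CPM in C, 9.84 to 19.6 CPM in DOP and 10.9 to 14.3 CPM in WCOC. The largest of its 3 differences in size was -0.28 in WCOC vs. DOP (95% interval -0.74 to 0.18, adjusted p = 0.430).

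Among the receptors, LEPR (ENSSSCG00000025188, chromosome 6 from 146802297 to 146896152, minus strand) was the scarcest gene and the one that differed most. The 5 C libraries held 0.245, 1.20, 0.382, 0.234 and 0.232 CPM, on 5 to 28 counts. The 5 DOP libraries held 0.442, 0.868, 0.833, 0.451 and 0.697 CPM, on 11 to 27 counts. The 5 WCOC libraries held 2.52, 3.97, 1.08, 0.762 and 1.71 CPM, on 24 to 106 counts. Of the C libraries, 4 lay below all others, while C replicate 2 lay within the range of WCOC. DOP and WCOC overlapped through WCOC replicate 4.

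LEPR rose in WCOC vs. C by a log2FC of 2.13 (SE 0.52, adjusted p = 0.0208), or 4.38-fold with a 95% interval of 1.02 to 3.25 on the log2 scale. In WCOC vs. DOP it was higher by a log2FC of 1.59 (SE 0.50, adjusted p = 0.04999), at the threshold itself. In DOP vs. C the log2FC was 0.54 (95% interval -0.60 to 1.68, adjusted p = 0.654), an interval that at these counts does not exclude a change of the size seen in WCOC vs. DOP. The call in WCOC vs. C stood in 12 of 17 alternatives (adjusted p from 0.00137 to 0.228). It was lost without C replicate 3 (adjusted p = 0.0562), C replicate 5 (0.0508) or WCOC replicate 1 (0.0539), and within flow cell A the log2FC was 1.95 (adjusted p = 0.0940). The call in WCOC vs. DOP stood in 7 of 16 alternatives (adjusted p from 0.0167 to 0.883) and in 2 of 15 fits that left out 1 library, those without C replicate 2 or WCOC replicate 4 (adjusted p from 0.0249 to 0.117 over the 15). With flow cell as a covariate, which separates the 2 diets, the log2FC was 0.46 (adjusted p = 0.883). Without the 3 libraries highest in muscle markers it was 1.62 (adjusted p = 0.419).

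**Figure D4:**
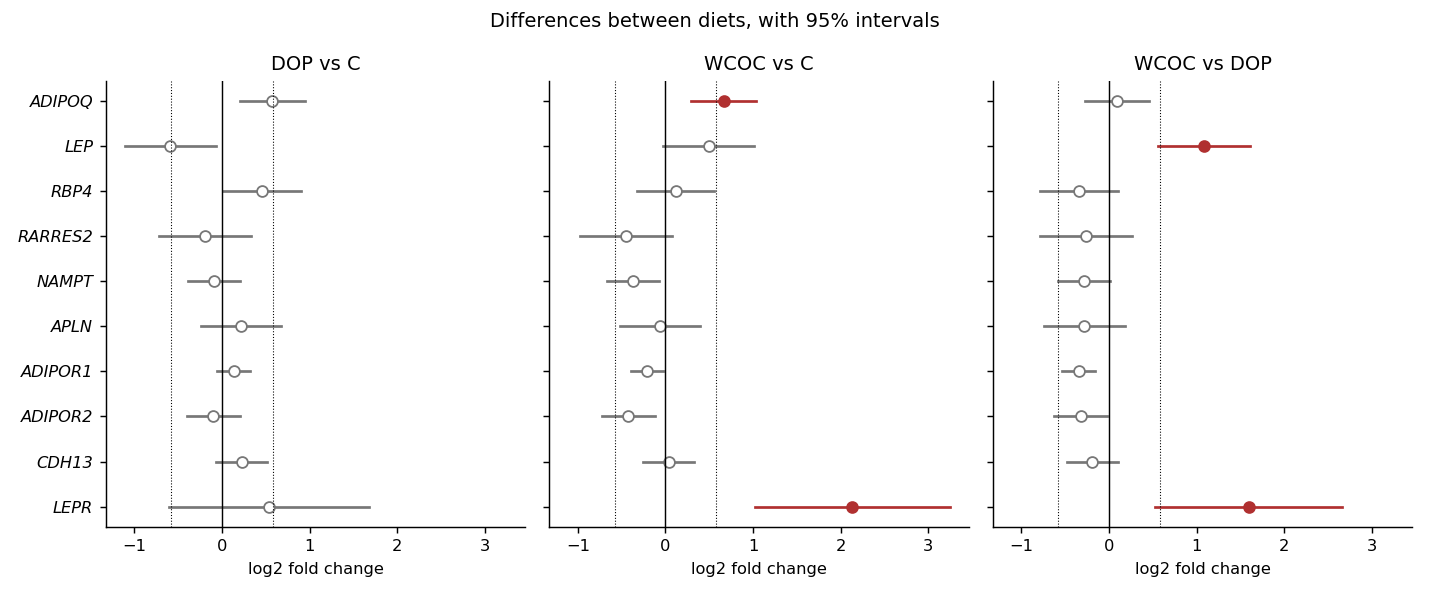
Log2 fold change of the 10 genes in the 3 comparisons, with 95% intervals from the edgeR fit. Filled red points are called, open grey points are not, and dotted lines mark the limit of 0.58. The intervals of LEPR are the widest, and the called genes are ADIPOQ and LEPR in WCOC vs. C and LEP and LEPR in WCOC vs. DOP.

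The receptors for adiponectin were not called in any of the 3 comparisons. ADIPOR1 (chromosome 10 from 24907491 to 24923540, minus strand) held 65.6, 58.1, 63.4, 66.0 and 51.7 CPM in C. It held 58.2, 73.0, 70.1, 64.7 and 68.8 CPM in DOP and 50, 58.4, 55.2, 46.1 and 53.6 CPM in WCOC. WCOC and DOP overlapped only through DOP replicate 1 and WCOC replicate 2. Its log2FC in WCOC vs. DOP was -0.35 (SE 0.09, adjusted p = 0.0223), past the p threshold but under the limit of 0.58, so it was not called. It had the smallest spread of the 10 genes, with a within-diet SD of 0.136 on the log2 CPM scale beside a median of 0.245 over all tested genes.

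ADIPOR2 (chromosome 5 from 68755789 to 68807247, plus strand) held 1938, 1844, 1422, 2023 and 1658 CPM in C. It held 1524, 1754, 1907, 1772 and 1343 CPM in DOP and 1376, 1565, 1378, 978 and 1334 CPM in WCOC. The WCOC libraries were on average the lowest, with overlap. The log2FC was -0.42 in WCOC vs. C (95% interval -0.73 to -0.12, adjusted p = 0.0754) and -0.10 in DOP vs. C (adjusted p = 0.775). CDH13 (chromosome 6 from 4809752 to 5832188, minus strand) held 194 to 286 CPM in C, 222 to 329 CPM in DOP and 211 to 277 CPM in WCOC. Its log2FC was 0.22 in DOP vs. C (95% interval -0.06 to 0.51, adjusted p = 0.416) and 0.04 in WCOC vs. C (adjusted p = 0.892). The spans of ADIPOR2, CDH13 and NAMPT overlap other annotated genes, so their counts are uncertain to that extent.

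The spread among pigs of 1 diet was unequal over the family. The biological coefficient of variation of the fit ran from 11.9% for ADIPOR1 to 52.9% for LEPR, with 18.7% for the median of all tested genes. LEP (28.1%), RARRES2 (27.9%), APLN (25.2%), RBP4 (24.0%) and ADIPOQ (21.2%) lay above that median, ADIPOR2 (18.7%) at it, and CDH13 (17.4%) and NAMPT (16.9%) below it. Over all 15 libraries the highest level was 17.1 times the lowest for LEPR, 5.24 times for LEP and 1.58 times for ADIPOR1.

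Whether levels went together among pigs of the same diet was examined for 5 pairs of a ligand with its receptor or binding protein and 3 pairs of ligands, with log2 CPM centred within diets and 100000 permutations within diets. APLN with its receptor was the 9th pair planned and was not run, since the receptor was not analysed here. None passed after adjustment over the 8 pairs. ADIPOQ and ADIPOR2 gave a Pearson r of 0.461 (permutation p = 0.126, adjusted p = 0.246) and a Spearman rho of 0.493 (permutation p = 0.0863, adjusted p = 0.173), with r = 0.341 without the 2 libraries farthest from the median and r = 0.623 within flow cell A. ADIPOQ and CDH13 gave r = -0.425 (permutation p = 0.123, adjusted p = 0.246) and rho = -0.536 (permutation p = 0.0542, adjusted p = 0.173), with r = -0.622 and -0.290 under the same settings. RARRES2 and CMKLR1 gave r = 0.433 (permutation p = 0.0832, adjusted p = 0.246) and rho = 0.457 (permutation p = 0.0830, adjusted p = 0.173), with r = 0.632 and 0.377. LEP and LEPR gave r = -0.0546 (permutation p = 0.829, adjusted p = 0.829) and rho = -0.0607 (permutation p = 0.832, adjusted p = 0.832), and ADIPOQ and LEP gave r = -0.206 (permutation p = 0.473, adjusted p = 0.540) and rho = -0.175 (permutation p = 0.553, adjusted p = 0.633).

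For each of the 10 genes the tested genes with the most similar pattern over the 15 libraries, after centring within diets, were looked up among 11132 genes with a symbol and a mean of at least 1 CPM, as a description. ADIPOQ was most like LANCL1 (r = 0.906), LEP most like SEPTIN11 (0.958) and HABP4 (0.957), and LEPR most like MACC1 (0.785). ADIPOR1 was most like GCAT (0.934) and the mitochondrially encoded COX2 (0.929), and ADIPOR2 most like AKT2 (0.930), a kinase of the insulin pathway. RARRES2 was most like LUM (0.939), a proteoglycan of fibroblasts that is also on the preadipocyte and fibroblast list. RBP4 was most like BCL6 (0.826), NAMPT most like MAP2K4 (0.891), CDH13 most like NBEA (0.863) and APLN most like SH3RF3 (0.933). Genes of 1 library share its depth, flow cell and mix of cells, and each likeness was picked as among the highest of all candidates.

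Genes that work with these 10 were taken from 7 lists covering the adiponectin, leptin, retinol, chemerin, NAD and apelin pathways and other adipokines. Of these, 96 were tested. In DOP vs. C 2 were called (2.08%), both higher, beside 0.764% of all tested genes in either direction and 0.215% higher. In WCOC vs. C 9 were called (9.38%), 3 higher and 6 lower, beside 6.25% of all genes, 2.33% higher and 3.93% lower. In WCOC vs. DOP 4 were called (4.17%), all lower, beside 7.76% of all genes, with 5.11% lower. The median log2FC of the 96 genes was 0.03, -0.01 and -0.07. The lists were also chosen with earlier results known, so these shares too are a description.

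In the adiponectin list, 0 of 17 tested genes were called in DOP vs. C, beside 0.764% of all tested genes. An unadjusted p under 0.05 was held by 5 of them, beside 17.6%. Called lower were 2 in WCOC vs. C, beside 3.93%, and 1 in WCOC vs. DOP, beside 5.11%. C1QTNF3, a secreted relative of adiponectin also called CTRP3, held 1.71 to 7.36 CPM in C, 2.91 to 6.76 in DOP and 0.687 to 2.81 in WCOC. It fell in WCOC vs. C by 1.34 on the log2 scale (SE 0.40, adjusted p = 0.0443). LGALS3BP, a galectin-binding glycoprotein, held 28.9 to 52.3 CPM in C, 19.6 to 30.7 in DOP and 11.7 to 24.2 in WCOC, with no overlap between C and WCOC. It fell in WCOC vs. C by 1.05 on the log2 scale (SE 0.20, adjusted p = 0.00606). PRKAA2, a catalytic subunit of AMP-activated kinase that skeletal muscle expresses strongly, held 11.4 to 213 CPM in DOP and 10 to 11.2 in WCOC, and its log2FC in WCOC vs. DOP was -2.66 (SE 0.65, adjusted p = 0.0189). Without the 3 DOP libraries highest in muscle markers it was -0.14 (adjusted p = 0.895). Whether muscle in the biopsies had a part in the difference was not tested.

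In the leptin list 1 of 15 tested genes was called, in DOP vs. C, beside 0.764% of all tested genes. GRB10, an adaptor that binds the insulin and leptin receptors, held 47.5 to 59.4 CPM in C and 61.9 to 103 in DOP with no overlap. It rose in DOP vs. C by a log2FC of 0.63 (SE 0.14, adjusted p = 0.0484), a call kept in 2 of 15 fits that left out 1 library and in 6 of 17 other alternatives. With flow cell as a covariate the log2FC of GRB10 was 0.79 (adjusted p = 0.244) and the call was lost. JAK2, STAT3, STAT5A and STAT5B, which carry the signal of LEPR, were tested and not called in any of the 3 comparisons. SOCS3, a feedback inhibitor of that signal, was listed at 0 in all 15 libraries, which is not read as absent expression, since whether its gene model collects reads was not tested.

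Of 14 tested genes of the retinol list 1 was called, in WCOC vs. C, beside 6.25% of all tested genes. This was BCO1, which cleaves beta-carotene to retinal. It held 2.45 to 4.07 CPM in C, 3.12 to 8.30 in DOP and 4.10 to 7.79 in WCOC, with no overlap between C and WCOC. BCO1 rose in WCOC vs. C by a log2FC of 0.91 (SE 0.26, adjusted p = 0.0378). The receptor for RBP4, STRA6, held 2 to 11 counts per library and stayed under the filter.

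The receptors for chemerin were all low. CMKLR1, the signalling receptor, held 9.02 to 21.1 CPM in C, 7.11 to 16.5 in DOP and 6.17 to 10.3 in WCOC. It fell in WCOC vs. C by 0.89 on the log2 scale (SE 0.26, adjusted p = 0.0417), and with the macrophage list mean as a covariate its log2FC was -0.18 (adjusted p = 0.878). Macrophages express CMKLR1. On the macrophage list 4 of 10 markers were called lower in the same comparison, beside 3.93% of all tested genes. Whether macrophages had a part in the fall of CMKLR1 was not tested. CMKLR2 had a log2FC of -1.57 in WCOC vs. C (SE 0.52, adjusted p = 0.0667) on 3 to 36 counts in these 2 diets, and CCRL2 one of -0.86 (SE 0.42, adjusted p = 0.203). Neither was called in the edgeR fit over all 15 libraries. CMKLR2 passed the threshold with DESeq2 (adjusted p = 0.0385) and limma-voom (0.0468), and in edgeR with the replicate number as a block (0.0305), with the adipocyte covariate (0.0433), without DOP replicate 3 (0.0453) and without WCOC replicate 2 (0.0366), with adjusted p from 0.0305 to 0.584 over the alternatives other than leaving out 1 library. Over the 6 tested genes of the list 1 was called, in WCOC vs. C, beside 6.25% of all tested genes.

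In the NAD list 1 of 15 tested genes was called, in WCOC vs. C, beside 6.25% of all tested genes. This was ENPP1, an ectoenzyme that splits nucleotides and binds the insulin receptor. It held 54.9 to 200 CPM in C, 46.7 to 63.2 in DOP and 38.6 to 56.7 in WCOC, and fell in WCOC vs. C by 1.28 on the log2 scale (SE 0.29, adjusted p = 0.0145). In the apelin list, KLKB1, plasma kallikrein, which can cleave apelin, held 1.15 to 2.01 CPM in C, 3.23 to 5.62 in DOP and 2.68 to 6.87 in WCOC. It rose in both, by a log2FC of 1.32 in DOP vs. C (SE 0.26, adjusted p = 0.0351) and of 1.21 in WCOC vs. C (SE 0.26, adjusted p = 0.0103), with no overlap with C in either. The KLKB1 call in DOP vs. C stood in 9 of 17 alternatives other than leaving out 1 library. It was lost with flow cell as a covariate (log2FC 1.18, adjusted p = 0.402). MME, neprilysin, an apelin-degrading peptidase, held 10 to 17.6 CPM in DOP and 5.92 to 8.64 in WCOC with no overlap, and fell in WCOC vs. DOP by 0.88 on the log2 scale (SE 0.17, adjusted p = 0.00674). The apelin receptor APLNR was not analysed here.

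Of 22 tested other adipokines, 3 were called in WCOC vs. C (13.6%) and 2 in WCOC vs. DOP (9.09%), beside 6.25% and 7.76% of all tested genes. ADM, adrenomedullin, a peptide that widens vessels, rose in WCOC vs. C by a log2FC of 0.62 (SE 0.19, adjusted p = 0.0473). GRN, progranulin, which macrophages express strongly, held 189 to 407 CPM in C, 151 to 192 in DOP and 127 to 212 in WCOC. It fell in WCOC vs. C by 0.94 on the log2 scale (SE 0.21, adjusted p = 0.0141). ANGPTL8, an insulin-induced inhibitor of lipoprotein lipase, held 0.563 to 4.67 CPM in C, 0.209 to 1.62 in DOP and 0 to 0.561 in WCOC. It fell in WCOC vs. C by 2.69 on the log2 scale (SE 0.72, adjusted p = 0.0302). ANGPTL4, an inhibitor of the same lipase that rises in fasting, held 24.6 to 46.1 CPM in C, 47.4 to 76.7 in DOP and 25.6 to 47.1 in WCOC, and fell in WCOC vs. DOP by 0.65 on the log2 scale (SE 0.18, adjusted p = 0.0303). SPARC, a matrix protein of stromal cells, fell in WCOC vs. DOP by 0.62 on the log2 scale (SE 0.18, adjusted p = 0.0373). CFD, adipsin, which fat cells are known to express strongly, was listed at 0 in all 15 libraries, and the same limit holds for it as for SOCS3. RETN, resistin, held 0 to 5 counts.

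**Figure D5:**
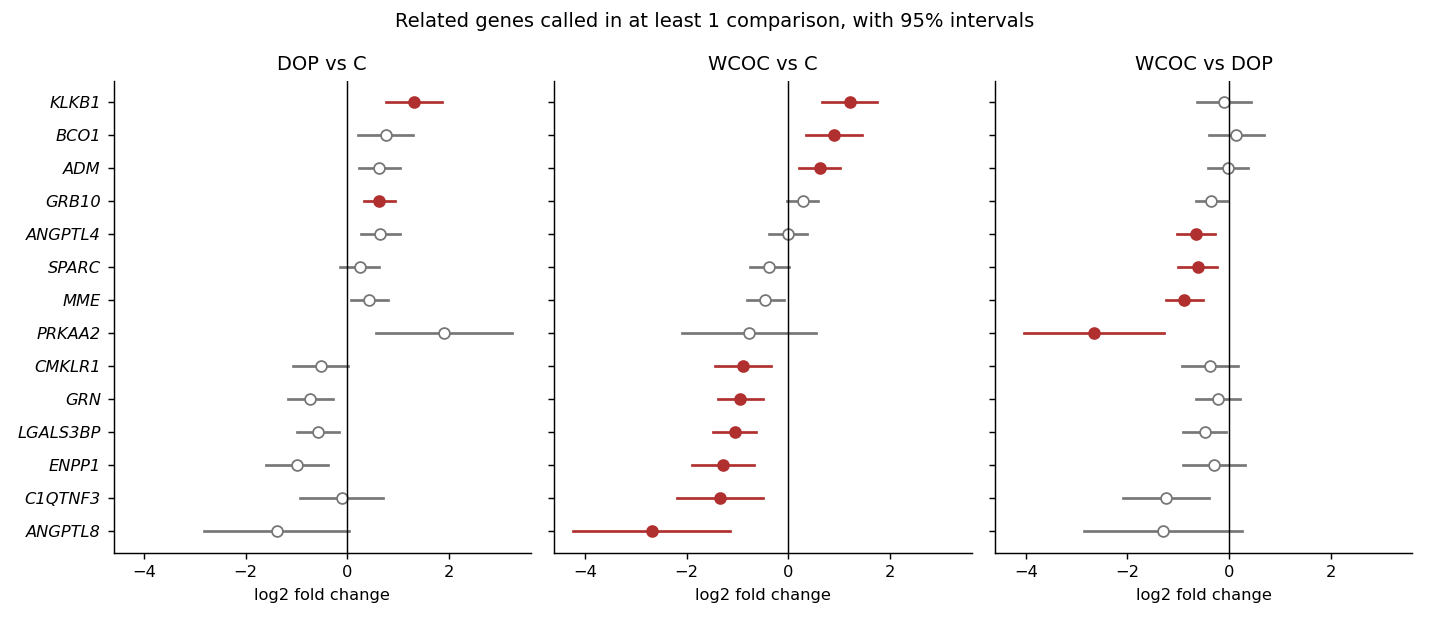
Log2 fold change, with 95% intervals, of the 14 genes from the pathway lists that were called in at least 1 comparison. Filled red points are called, open grey points are not. KLKB1 was called higher in both comparisons with C, and 6 genes were called lower in WCOC vs. C.

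In WCOC vs. C, ENPP1, GRN, LGALS3BP and KLKB1 stayed called in 15 of 15 fits that left out 1 library, ANGPTL8 in 10, BCO1 in 7, CMKLR1 in 6, C1QTNF3 in 5 and ADM in 2. KLKB1 stayed called in 8 of these 15 fits in DOP vs. C. In WCOC vs. DOP, MME and PRKAA2 stayed called in 15, ANGPTL4 in 11 and SPARC in 9. With the mean of the macrophage list as a covariate 0 of the 96 genes were called in WCOC vs. C by edgeR, and the same count was given by the preadipocyte and fibroblast list and by the endothelial list. Of all tested genes, 32, 70 and 103 were called in the same fits, beside 933 without a covariate. The part of these cell types was not tested.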

How the data were processed

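The data are RNA-seq of backfat from 15 Iberian pigs (5 C, 5 DOP, 5 WCOC). The authors mapped untrimmed read pairs to Sscrofa11.1 using HISAT2. They deposited 1 table of raw counts for each library, made by HTSeq-count with Ensembl gene identifiers. Versions, annotation release and the strand option of the counting are not given in the sources used here. The 5 summary lines of each deposited file (uncounted pairs) stayed out, and 67.2% to 76.6% of pairs fell on genes. CPM, log2 and percent values were computed here. Diets and replicate numbers come from the labels, flow cells from the run identifiers.

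Counts were tested in R 4.3.3 with edgeR 4.0.16: filterByExpr by diet, TMM, 1 mean per diet over all 15 libraries, quasi-likelihood F-test, two-sided, Benjamini-Hochberg adjustment over 14918 genes. DESeq2 1.42.0 and limma-voom (limma 3.58.1) were alternatives, as were other scalings, filters, covariates, and each library left out in turn. The workflow was tested on simulated data. Log2 CPM used a prior count of 1. With 22373715 or more counts per library, precision is limited by the number of pigs, and for genes of few counts (LEPR, CMKLR2, CCRL2, ANGPTL8) also by depth. No 2 libraries of a diet agreed within sampling noise. That replicates are separate pigs is stated by the methods. Symbols came from a reference table, positions, exon lengths and the LEP stretch from RefSeq (Sscrofa11.1).

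The members, the gene lists and the markers were chosen with earlier results of these data known. Beyond the 10 members, named genes are pathway genes called in at least 1 comparison, the receptors of chemerin, RBP4 and apelin, and the 2 genes most like each member (1 or both given). JAK2, the STAT genes, SOCS3, CFD and RETN were named after their values were seen.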

Additional observations from a re-analysis of the deposited data

Results flagged for a closer look

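In 3 of 30 groups of 5 libraries (10 genes in 3 diets) 1 library lay far from the other 4 by Dixon's 95% limit of 0.71, which chance alone exceeds in about 1 of 20 groups. All 3 were control libraries. C replicate 4 held 773 CPM of LEP, while the next of its group held 505. The same library held 21 CPM of APLN, while the next held 11.8. C replicate 2 held 1.20 CPM of LEPR, while the next held 0.382, and without it the log2FC of LEPR in WCOC vs. C was 2.84 (edgeR, adjusted p = 0.00483).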

How the results depend on the processing

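The edgeR fit over all 15 libraries called 114 genes in DOP vs. C, 933 in WCOC vs. C and 1158 in WCOC vs. DOP. For DOP vs. C this was 496 with DESeq2, 19 with limma-voom, 2 with only the diets compared, 43, 3, 14 and 0 with the muscle, macrophage, adipocyte and endothelial list means as covariates and 0 without the 3 libraries highest in muscle markers. For WCOC vs. C it was 486 within flow cell A, 32, 70 and 103 with the macrophage, preadipocyte and endothelial covariates and 1493 without a log2FC limit. For WCOC vs. DOP it was 1 with flow cell as a covariate, 447, 351 and 733 with the muscle, preadipocyte and endothelial covariates, 1842 without a log2FC limit and 80 without the 3 libraries. The preadipocyte and endothelial covariates and the omission of the 3 libraries were chosen after seeing the data.

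The replicate numbers did not pair the pigs, since correlations of same-numbered libraries ran from -0.495 to 0.345 and 1 of 15 libraries was most like its own number. With the replicate number as a block, 0, 473 and 561 genes were called, with 1 member in WCOC vs. C and 0, 3 and 1 pathway genes.

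Of the 10 members, the 2 called in WCOC vs. C became 1 with at least 10 counts in every library, only the diets compared, flow cell as a covariate or without the 3 libraries, and 0 within flow cell A or with the macrophage, preadipocyte or endothelial covariates. The 2 called in WCOC vs. DOP became 1 without a filter, with at least 10 counts, limma-voom, robust fitting or the macrophage or adipocyte covariates, and 0 with flow cell, muscle or preadipocyte covariates or without the 3 libraries. With at least 10 counts required in every library, LEPR was not tested in either comparison, since C replicate 1 held 5 counts. The 2 pathway genes of DOP vs. C became 7 with DESeq2, 1 without a filter or with the muscle or preadipocyte covariates, and 0 with limma-voom, only the diets compared, the macrophage, adipocyte or endothelial covariates or without the 3 libraries. With flow cell as a covariate neither GRB10 nor KLKB1 was called in DOP vs. C. The 9 of WCOC vs. C became 0 with the macrophage, preadipocyte or endothelial covariates. The 4 of WCOC vs. DOP became 10 with DESeq2, 7 without a log2FC limit, 1 with the muscle or preadipocyte covariates and 0 with the flow cell covariate or without the 3 libraries. Leaving out 1 library gave 0 to 200, 468 to 1163 and 639 to 1291 genes, 0 to 0, 0 to 3 and 1 to 2 members and 0 to 3, 4 to 12 and 2 to 9 pathway genes. The causes of the other changes were not tested.

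Signs turned for uncalled values. In DOP vs. C the log2FC became 0 for ADIPOR2 (flow cell, endothelial), 0.10 for CCRL2 (macrophage), 0.24 for CMKLR2 and 0.21 for NAMPT (flow cell), and 0.27 (macrophage), 0.10 (endothelial) and, over the fits without 1 library, -0.28 to 0 (0 without C replicate 3) for RARRES2. In WCOC vs. C it became 0.29 (endothelial) and -0.15 to 0.20 without 1 library (0.20 without C replicate 4) for APLN, 0.15 for CCRL2 (macrophage), -0.01 (flow cell A), -0.07 (macrophage), -0.22 (endothelial), and -0.04 to 0.10 without 1 library (-0.04 without C replicate 4, 0 without WCOC replicate 3) for CDH13, 0.28 (macrophage) and 0.21 (preadipocyte) for RARRES2 and -0.01 for RBP4 (preadipocyte). In WCOC vs. DOP it became -0.20 (preadipocyte) and -0.05 to 0.19 without 1 library (-0.05 without WCOC replicate 1) for ADIPOQ, 0.72 (flow cell), 0.06 (macrophage), 0.14 (preadipocyte), 0.42 (without the 3 libraries) and -0.49 to 0.01 without 1 library (0.01 without DOP replicate 2) for CCRL2, 0.36 for CMKLR1 (flow cell), and 0.01 (macrophage) and 0.31 (preadipocyte) for RARRES2. Without centring within diets r became -0.0231 for ADIPOQ and ADIPOR1, -0.184 for ADIPOQ and ADIPOR2, 0.338 for LEP and LEPR and -0.0489 for LEP and RARRES2. Within flow cell A it became -0.0640 for ADIPOQ and RBP4 and 0.0428 for LEP and LEPR, and without the 2 farthest libraries 0.180 for the latter. Among the tested genes named, depth limits LEPR (5 to 106 counts per library), CMKLR2 (3 to 36), CCRL2 (12 to 73) and ANGPTL8 (0 to 120).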
